A study of Homo sapiens with 3 samples.

Results

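The transcriptomes of HepG2 cells given A740003 or A438079 were compared directly, each at 20 µM for 48 h. HepG2 is an established human line that the labels describe as hepatocellular carcinoma from liver, with a wild-type genotype. Both are P2X7-specific antagonists by the submitters' account, and they are the 1 pair of compounds here with a matched dose and time. The library of the control cells, given PBS for 48 h, is quoted here as a level beside the others. All 3 groups were kept in the same medium with serum and antibiotics, and what the compounds were dissolved in was not stated by the labels. Genes were taken when their mean over the 3 libraries reached 1 CPM (counts scaled to library size), which held for 12273 of 62680 rows of the deposited table. With 1 library on each side there is no replicate check of any difference, and no p-value is given. Ratios are A740003 over A438079 in scaled counts, with an exact 95% interval that covers counting error only. What separates the libraries beyond counting, including culture, extraction and sequencing, cannot be told apart from the compounds, and in such bulk samples neither can fewer cells of a kind and less RNA per cell.

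P2X7 is an ion channel opened by extracellular ATP, known best in immune cells, where its opening lets cations pass and can trigger the inflammasome. Cholesterol is built in the liver from acetyl-CoA through mevalonate, squalene and lanosterol. The genes of that route are classic targets of SREBP2, a transcription factor that is held in the endoplasmic reticulum while sterols are plentiful and released by proteolysis when they run low.

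Genes of cholesterol synthesis were higher with A740003 than with A438079 at nearly every step, and their 2 lists had the medians farthest from 0 among 58 lists examined. Of 23 such genes compared, 20 had a ratio above 1, and the largest were DHCR7 and MVD, each 1.75-fold. Against PBS the median log2 ratios of the 2 lists were -0.03 and -0.07 with A740003, and -0.50 and -0.39 with A438079. SCD, FTL, HMOX1, NR0B2 and the UGT1A genes were also higher with A740003. Lower with A740003 were ALB, AFP, IGF2, FOXQ1, FLNA, SKI, ARID1A and the 13 mRNAs of the mitochondrial genome. SKI and ARID1A averaged under 5 CPM in the antagonist libraries, so they passed the 5 CPM filter for naming through their PBS level.

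The gene of the channel itself was hardly read. P2RX7 (ENSG00000089041) had 2 counts in each library, for which exact Poisson 95% intervals ran from 0.0122 to 0.364 CPM with A740003 and from 0.0125 to 0.372 CPM with A438079. A difference in P2RX7 was not detectable at this depth. P2RX4, a related channel gene that also answers to ATP, had 219 counts with A740003, 247 with A438079 and 249 with PBS. Its ratio was 0.866 (0.719 to 1.04), so a difference between the antagonists was not detectable beyond counting error. Of 22 genes of purinergic receptors and channels in the table, 8 reached the filter, with 4 above and 4 below a ratio of 1. ADORA2A, an adenosine receptor gene with fractional counts, was the only one of the 8 whose interval left out 1. It had 150, 100 and 168 counts with A740003, A438079 and PBS, a ratio of 1.46 (1.13 to 1.91). Of 8 inflammasome and pyroptosis genes compared, none reached 1.5-fold with an interval that left out 1.

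The early part of cholesterol synthesis, from acetyl-CoA to squalene, had 11 of its 12 genes compared. Of these 10 were above 1, 9 with an interval above 1 and none with an interval below 1. The median log2 ratio was 0.45, against 0.00 over all genes compared, of which 50.2% were above 1 and 49.8% below. Intervals lay above 1 for 16.1% of all genes and below 1 for 16.8%. These shares depend on depth. An interval left out 1 for 19.9% of genes at 1 to 5 CPM and for 59.2% above 100 CPM. Interval counts in lists of highly read genes, here and below, therefore have a higher baseline than the share over all genes. At least 1.5-fold with an interval that left out 1 were 2 of the 11, MVD and FDFT1, where 2.52% of all genes compared passed that size on the higher side. The list was known from earlier results of these libraries, so its direction is not independent evidence.

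HMGCS1 condenses acetoacetyl-CoA and acetyl-CoA at the entry of the route and had 7614 counts with A740003, 5065 with A438079 and 7162 with PBS. Its A740003 and PBS counts were close and the A438079 count was low, giving a ratio of 1.47 (1.42 to 1.52). MVK, the mevalonate kinase gene, followed the same order of libraries with 507, 336 and 492 counts and a ratio of 1.47 (1.28 to 1.70). MVD (ENSG00000167508; GRCh38 chromosome 16, 88651935 to 88663161, minus strand), which encodes the decarboxylase that makes isopentenyl pyrophosphate, had 411, 230 and 549 counts. Here the A740003 library lay between the others, at 1.75 times A438079 (1.48 to 2.06). IDI1, which isomerises that product, had 6741, 4487 and 6750 counts and a ratio of 1.47 (1.41 to 1.52).

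FDFT1 encodes squalene synthase, the first enzyme committed to sterols. It had 8177 counts with A740003, 4962 with A438079 and 8195 with PBS, and its ratio was 1.61 (1.55 to 1.67). Its counts were fractional, so reads shared with other rows leave it less certain. FDPS and ACAT2, which make farnesyl pyrophosphate and acetoacetyl-CoA, stood at smaller ratios of 1.22 (1.17 to 1.27) and 1.23 (1.19 to 1.29). PMVK, the phosphomevalonate kinase gene, had 239, 219 and 219 counts and a ratio of 1.07 (0.883 to 1.29), an interval that holds 1. GGPS1 takes farnesyl pyrophosphate to the side branch used for protein prenylation rather than to sterols. It had 804, 788 and 696 counts, a ratio of 0.996 (0.902 to 1.10), the member of this list below 1.

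From lanosterol to cholesterol all 12 genes were compared, and 10 were above 1, 9 with an interval above 1 and none with an interval below 1. Their median log2 ratio was 0.40. DHCR7 (ENSG00000172893; GRCh38 chromosome 11, 71428193 to 71452868, minus strand), which encodes the reductase of the last step of the main branch, had 1586 counts with A740003, 885 with A438079 and 1545 with PBS. The A438079 library stood apart from the other two, and the ratio was 1.75 (1.61 to 1.90). It was the only member of the 12 at least 1.5-fold higher, where 2.52% of all genes were.

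LSS forms lanosterol, the first sterol ring system, and had 551, 363 and 908 counts, with a ratio of 1.48 (1.30 to 1.70). Both antagonist libraries were below PBS for this gene, A438079 further so. NSDHL and HSD17B7, which act in removing the C4 methyl groups, stood at 1.44 (1.32 to 1.57) and 1.43 (1.27 to 1.61). MSMO1, the oxidase of the same steps, had 5225, 3590 and 5006 counts and a ratio of 1.42 (1.36 to 1.48). SC5D, a desaturase gene, had 2952, 2148 and 2664 counts and a ratio of 1.34 (1.27 to 1.42). CYP51A1, the lanosterol demethylase gene, stood at 1.29 (1.24 to 1.35) and EBP, the sterol isomerase gene, at 1.18 (1.09 to 1.27).

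TM7SF2, LBR and FAXDC2 had intervals that held 1. TM7SF2 and LBR both encode sterol reductases for the same step. TM7SF2 had 299, 278 and 367 counts and a ratio of 1.05 (0.889 to 1.24). LBR, also a receptor of the nuclear lamina, had 5808, 5822 and 5029 counts and a ratio of 0.974 (0.939 to 1.01). FAXDC2 had 152 counts with each antagonist and 197 with PBS. In the deposited FPKM values, which are scaled for transcript length and library size, 11 of 11 early and 11 of 12 late genes were higher with A740003. FPKM ratios leaned above 1 in general. Of 9420 genes at 5 CPM or more and not past 1.5-fold in counts, 5251 were above 1 in FPKM and 4146 below, with a median of 1.02. On that scale levels among the genes named here ran, with A740003, from 4.41 FPKM for FAXDC2 to 334 FPKM for FDPS. Once the running trend over GC content and transcript length was subtracted, the medians were 0.44 for the early and 0.41 for the late genes.

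**Figure D1:**
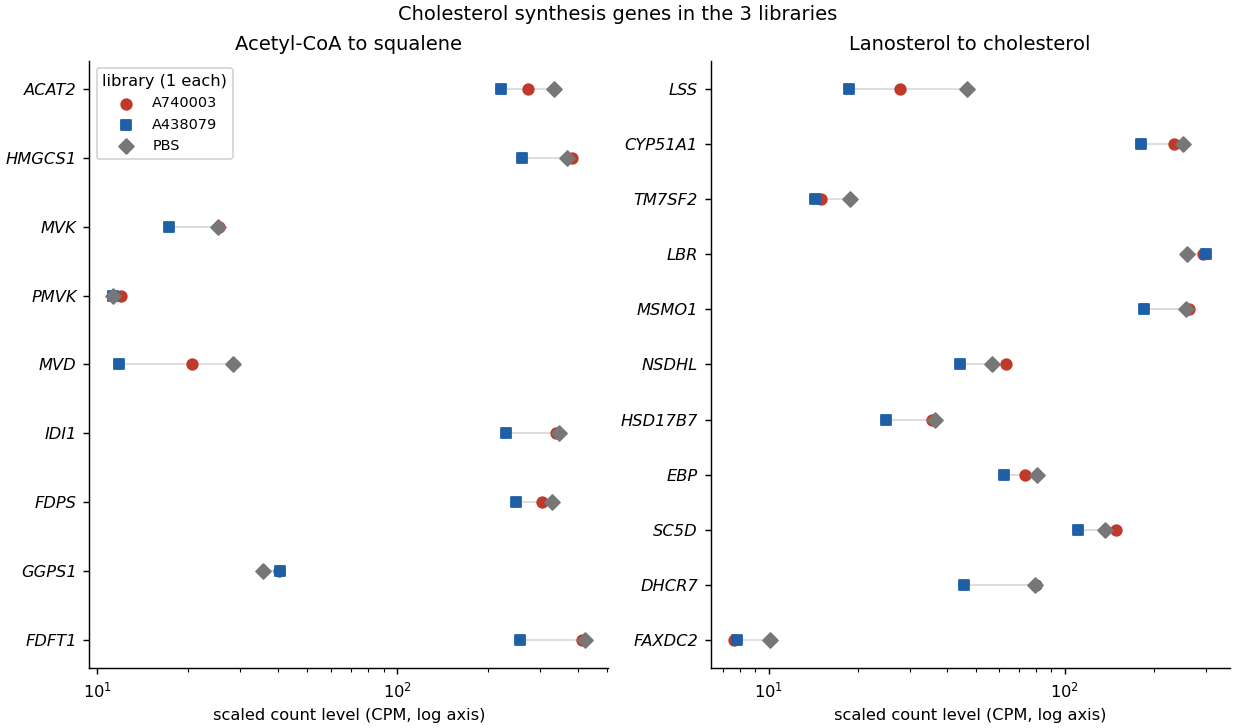
Scaled count level (CPM, log axis) of the cholesterol synthesis genes named in the text in the A740003 (circle), A438079 (square) and PBS (diamond) libraries, 1 library each, ordered along the pathway from top to bottom. The A438079 point lies left of the A740003 point for every gene drawn except GGPS1, LBR and FAXDC2, with the widest gaps at DHCR7 and MVD.

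Promoter sequences of 4 of these genes are shown because the genes stood together in the comparison and SREBP2 is known to act at sterol regulatory elements beside a CCAAT box bound by NF-Y. The sequences are RefSeq, build GRCh38.p14, and give the 250 bases before a start site, 5′ to 3′ on the gene's strand. Capitals mark CCAAT or its reverse complement ATTGG, and in MVK also TCACCCCA. The windows lie at chr16:88663092-88663341 (MVD, minus strand), chr11:71448394-71448643 (DHCR7, minus strand, 1 of 2 listed starts), chr21:46228775-46229024 (LSS, minus strand) and chr12:109573544-109573793 (MVK, plus strand).
MVD: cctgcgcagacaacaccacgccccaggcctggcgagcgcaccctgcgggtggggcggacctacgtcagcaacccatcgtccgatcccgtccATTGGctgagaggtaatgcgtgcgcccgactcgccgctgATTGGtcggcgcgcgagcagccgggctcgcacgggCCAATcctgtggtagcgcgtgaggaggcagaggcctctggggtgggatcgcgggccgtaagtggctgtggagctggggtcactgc
DHCR7: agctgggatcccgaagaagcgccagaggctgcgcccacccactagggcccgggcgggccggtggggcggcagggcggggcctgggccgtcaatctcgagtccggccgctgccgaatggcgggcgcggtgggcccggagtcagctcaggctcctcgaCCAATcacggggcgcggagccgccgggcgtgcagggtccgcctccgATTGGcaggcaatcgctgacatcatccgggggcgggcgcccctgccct
LSS: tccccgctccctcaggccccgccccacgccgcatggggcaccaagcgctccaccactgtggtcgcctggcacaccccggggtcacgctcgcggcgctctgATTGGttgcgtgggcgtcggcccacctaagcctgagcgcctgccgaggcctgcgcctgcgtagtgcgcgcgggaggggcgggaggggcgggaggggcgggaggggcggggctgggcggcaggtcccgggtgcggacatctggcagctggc
MVK: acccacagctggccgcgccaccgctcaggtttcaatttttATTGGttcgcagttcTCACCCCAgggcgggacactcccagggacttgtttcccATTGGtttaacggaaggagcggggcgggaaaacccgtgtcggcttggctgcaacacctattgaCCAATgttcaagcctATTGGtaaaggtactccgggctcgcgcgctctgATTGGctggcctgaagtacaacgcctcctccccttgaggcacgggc
MVK held 5 matches to CCAAT on either strand, MVD 3, DHCR7 2 in the window shown and 0 in the window of its other listed start, and LSS 1. Of 23 cholesterol genes compared, 18 had such a window in the RefSeq table, and 14 of the 18 held CCAAT or ATTGG, which 42.8% of the 9352 compared genes with a window also held. The GC box GGGCGG, searched on both strands, was in 15 of 18, against 74.6% of genes. A core of the sterol regulatory element, TCACNCCAC, was in none of the 18 and in 1.18% of genes. TCACCCCA, which can overlap that core, was in MVK and in 1.5% of genes, also on both strands. These matches describe letters in the windows searched.

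In counts, mRNAs of the route's regulators did not lean above 1 as those of its enzymes did. Of 11 SREBP factors and processing genes compared, 4 were above 1 and 7 below in counts, with a median log2 ratio of -0.09. In FPKM 6 of the 11 were above 1, so the lean below 1 was not kept on that scale. In counts 2 of the 11 were at least 1.5-fold lower with A740003, where 2.74% of all genes compared were on that side. SREBF2, which encodes SREBP2, had 405 counts with A740003, 436 with A438079 and 930 with PBS. Both antagonist libraries lay far below PBS, and their ratio was 0.907 (0.790 to 1.04). SREBF1, the gene of the lipogenic SREBP1, had 26, 52 and 93 counts, a ratio of 0.488 (0.293 to 0.796). SCAP, the sterol-sensing escort of the SREBPs, had 58, 103 and 209 counts and a ratio of 0.550 (0.392 to 0.766). The deposited FPKM values of SCAP were 1.62, 1.52 and 3.52, which puts A740003 slightly above A438079 and reverses the direction in counts. The proteases that release SREBPs went opposite ways, MBTPS1 at 1.14 (1.06 to 1.24) and MBTPS2 at 0.857 (0.780 to 0.941). INSIG2, a retention factor, stood at 0.940 (0.887 to 0.996) in counts and 1.05 in FPKM, and INSIG1 was below the filter with 0, 1 and 0 counts.

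Other lipid genes were mixed. Of 12 sterol uptake and trafficking genes, 8 were above 1 and the median log2 ratio was 0.18. STARD4, a carrier of cholesterol between membranes, had 1642, 1121 and 1344 counts and a ratio of 1.43 (1.33 to 1.54). NPC1L1, the sterol importer gene, went the other way with 75, 102 and 189 counts and a ratio of 0.718 (0.526 to 0.977). Of 17 fatty acid synthesis genes, 12 were above 1, 8 of them with an interval above 1, 3 genes had an interval below 1, none reached 1.5-fold in either direction, and the median was 0.12. SCD, the gene of the main desaturase that makes oleate, was among the most read genes of the libraries, with 69857 counts with A740003, 49675 with A438079 and 54937 with PBS. The A740003 library was the highest of the 3, and the ratio was 1.37 (1.36 to 1.39), with fractional counts. ACSS2, which activates acetate, had 983, 717 and 971 counts and a ratio of 1.34 (1.21 to 1.48). ACACA and ACLY, which make malonyl-CoA and cytosolic acetyl-CoA, stood at 1.28 and 1.19. FASN, the fatty acid synthase gene, had 120, 165 and 928 counts, a ratio of 0.710 (0.557 to 0.904), but its FPKM values were 1.53 with A740003 and 1.37 with A438079. Its direction between the antagonists therefore depends on which of the deposited tables is read. ELOVL6, an elongase gene, likewise stood at 1.30 (1.20 to 1.40) in counts and at 0.951 in FPKM.

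Across all genes the difference was small. The median log2 ratio was 0.00, and across genes the log2 levels of the antagonist libraries had a Pearson correlation of 0.984, which is over genes that share both libraries and is no replicate measure. At 2-fold, 124 genes were higher with A740003 (1.01% of 12273) and 139 lower (1.13%). At 1.5-fold, 309 were higher and 336 lower. Most of these genes were near the filter. Between 1 and 5 CPM, 243 of 2684 genes passed 1.5-fold on the higher side and 233 on the lower, and the median interval there spanned 2.56-fold from bound to bound. Above 100 CPM, 2 of 1921 genes were higher, FDFT1 and SULT1A3, whose copy is treated below, and 4 rows were lower, IGF2 and 3 rows with identical values in the ribosomal RNA repeats. Among the 9589 genes with a mean of 5 CPM or more, 66 were 1.5-fold higher and 103 lower, and 6 were 2-fold higher and 21 lower. That mean includes PBS, which was above both antagonists in 14 of the 66 and 78 of the 103, so the filter partly sets these counts. With a filter of 1 CPM over the 2 antagonist libraries alone, 303 genes were 1.5-fold higher and 322 lower. The median gene had 439 counts with A740003 and 431 with A438079.

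**Figure D2:**
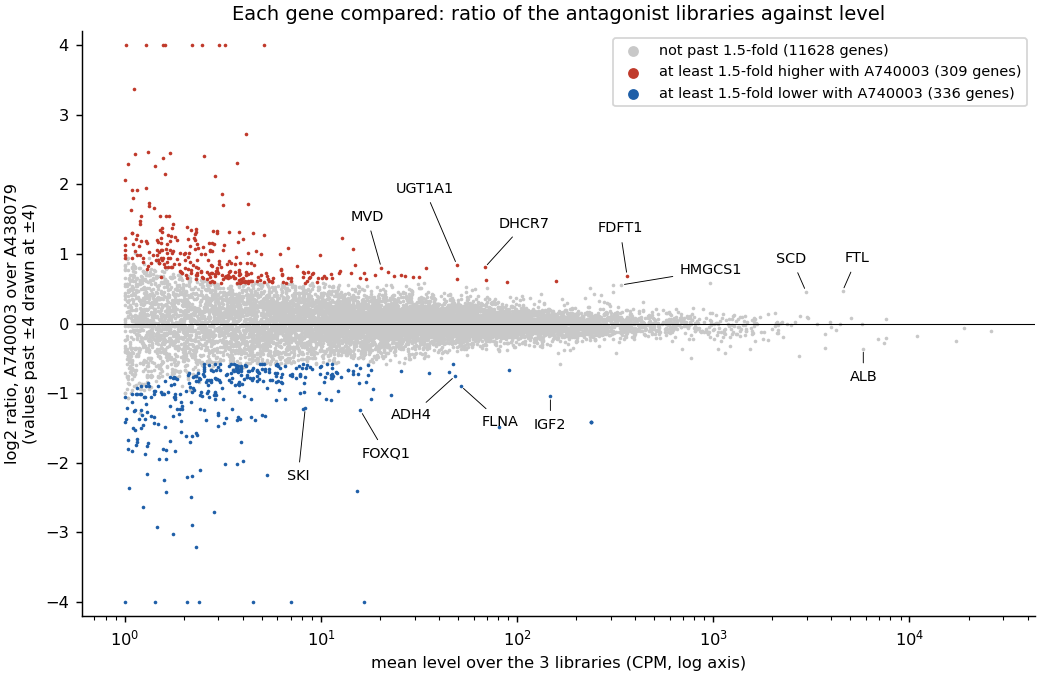
Log2 ratio of A740003 over A438079 for each of the 12273 genes against its mean level over the 3 libraries (CPM, log axis), with genes at least 1.5-fold higher in red and lower in blue where the counting interval left out 1. The coloured points crowd at low levels, and above 100 CPM they number 6.

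Genes whose expected counts were whole in both antagonist libraries show no fractional split of reads with other rows. Of 5249 such genes with at least 5 CPM, 25 were at least 1.5-fold higher and 60 lower. By rank, the higher ones included DHCR7 and MVD, described above, and 9 more with the following values. NR0B2 (ENSG00000131910; GRCh38 chromosome 1, 26911489 to 26913966, minus strand) encodes SHP, the repressor through which bile acids limit their own synthesis. It had 856 counts with A740003, 524 with A438079 and 482 with PBS, so that only the A740003 library was high, and its ratio was 1.60 (1.43 to 1.78). HMOX1, the gene of the heme-degrading enzyme heme oxygenase 1, had 1175, 736 and 991 counts and a ratio of 1.56 (1.42 to 1.71), with the A438079 library the lowest of the 3. SDC4, a cell surface proteoglycan gene, had 2219, 1435 and 1533 counts and a ratio of 1.51 (1.41 to 1.61).

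PFKFB2, which encodes an enzyme that sets the glycolytic activator fructose 2,6-bisphosphate, had 493, 296 and 313 counts and a ratio of 1.63 (1.41 to 1.89). ANGPTL8, the gene of a secreted regulator of lipoprotein lipase, had 426, 263 and 240 counts and a ratio of 1.58 (1.35 to 1.85). In both, the A438079 and PBS libraries were close and the A740003 library was above them. SLCO4C1, an organic anion transporter gene, stood at 1.67 (1.34 to 2.09), and DECR2, a peroxisomal reductase gene of fatty acid oxidation, at 1.64 (1.33 to 2.04). OXLD1 and RPUSD1 had 185 against 102 and 149 against 85 counts.

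The 12 lowest genes with whole counts were FOXQ1, SKI, SBF1, FLNA, MMP15, SEMA6B, SCRIB, RXRA, ADH4, PELP1, CABLES1 and PRRC2A. FOXQ1 (ENSG00000164379; GRCh38 chromosome 6, 1312440 to 1314748, plus strand), a forkhead transcription factor gene, had 113 counts with A740003, 263 with A438079 and 553 with PBS. The order of the libraries was A740003, A438079, PBS, and the ratio was 0.420 (0.334 to 0.525). SKI, a corepressor of SMAD signalling, had 58, 132 and 296 counts, a ratio of 0.429 (0.310 to 0.589). FLNA, which encodes the actin crosslinker filamin A, had 427, 777 and 1812 counts and a ratio of 0.537 (0.476 to 0.605). RXRA, the shared partner of many nuclear receptors, had 61, 127 and 195 counts and a ratio of 0.469 (0.340 to 0.641). All of these had PBS as the highest of the 3 libraries.

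MMP15, a membrane metalloproteinase gene, had 68, 142 and 406 counts and a ratio of 0.468 (0.345 to 0.629). SEMA6B, a semaphorin gene, had 160, 300 and 614 counts and a ratio of 0.521 (0.427 to 0.633). SBF1, PELP1 and CABLES1 stood at 0.423, 0.499 and 0.558. ADH4, an alcohol dehydrogenase gene of hepatocytes, was the exception to that order. It had 660 counts with A740003, 1088 with A438079 and 1081 with PBS, so that only the A740003 library was low, and its ratio was 0.592 (0.537 to 0.653). SCRIB, a polarity gene, and PRRC2A had ratios in counts of 0.397 (0.241 to 0.635) and 0.509 (0.380 to 0.677). In FPKM they stood at 1.07 and 1.03, so that their direction is not settled by these tables.

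The filter of 5 CPM is a mean over the 3 libraries, so a gene that averaged under 5 CPM in the antagonist libraries could enter this ranking through its PBS level. SCRIB did so, at 1.31 CPM with A740003, 3.30 with A438079 and 10.4 with PBS. SKI, SBF1 and RXRA did so too, at 2.9, 2.5 and 3.1 CPM with A740003 and 6.8, 5.8 and 6.5 with A438079. The place of PBS among the libraries is therefore partly set by the selection and is given as a description of these genes. The counts of 25 higher and 60 lower genes share that limit. PBS was above both antagonists in 6 of the 25 and 55 of the 60, against 36.3% of the 5249.

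**Figure D3:**
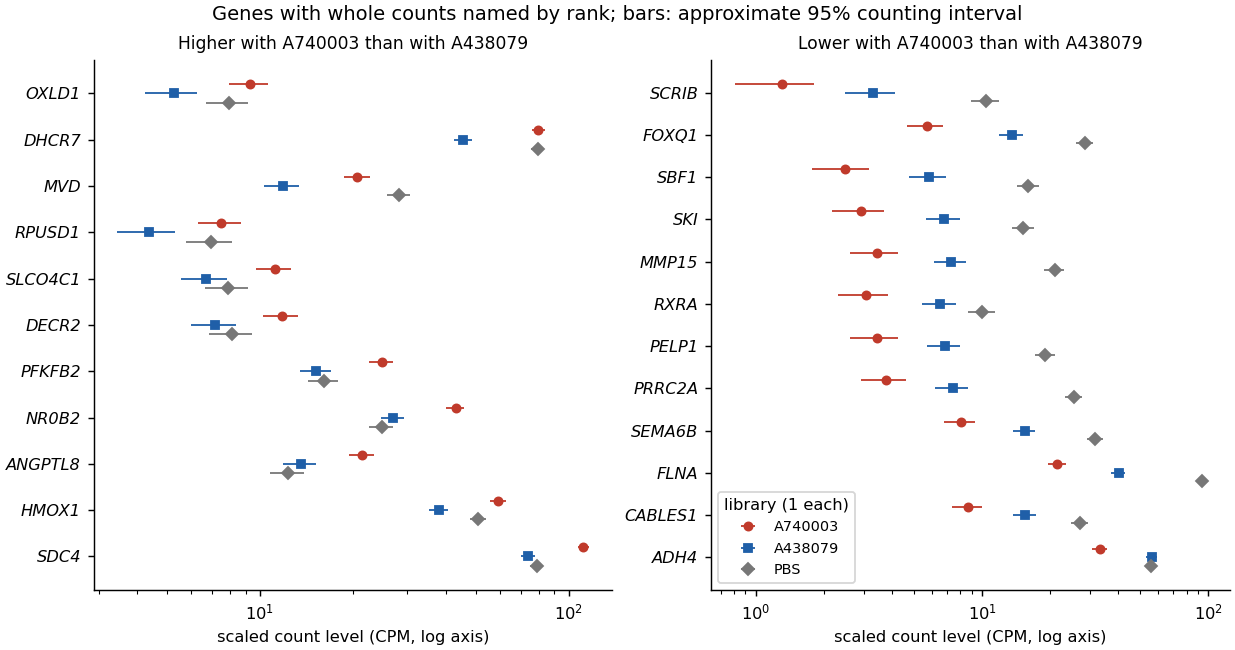
Scaled count level (CPM, log axis) in the 3 libraries of the genes with whole counts that ranked highest (left, 11 genes) and lowest (right, 12 genes) by the interval bound nearest to 1, with bars for an approximate 95% counting interval. On the right, PBS is the highest library for all genes but ADH4, whose PBS and A438079 points coincide closely.

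Genes past 1.5-fold were unevenly spread over transcript properties, which were known for 11908 genes (97.0%). Genes were split by GC content into 4 groups of 2977. In the group with the highest GC content, 55.4% to 75.8%, 101 genes passed 1.5-fold on the higher side (3.39%) and 166 on the lower (5.58%). In the group with the lowest GC content 47 were higher (1.58%) and 41 lower (1.38%). The genes of the top group were also less read, with a median of 169 counts with A740003 against 836 in the lowest group. Split likewise by length, the longest transcripts had 45 genes higher and 92 lower, and the shortest 103 higher and 84 lower. The medians of all 8 groups lay between -0.01 and 0.02 on the log2 scale, so the unevenness was in the tails. Lower genes had a median GC content of 56.1% and a median length of 3899 nt, against 47.5% and 3528 nt over all genes and 52% and 2624 nt for higher genes. The part of transcript composition in the single ratios was not tested.

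**Figure D4:**
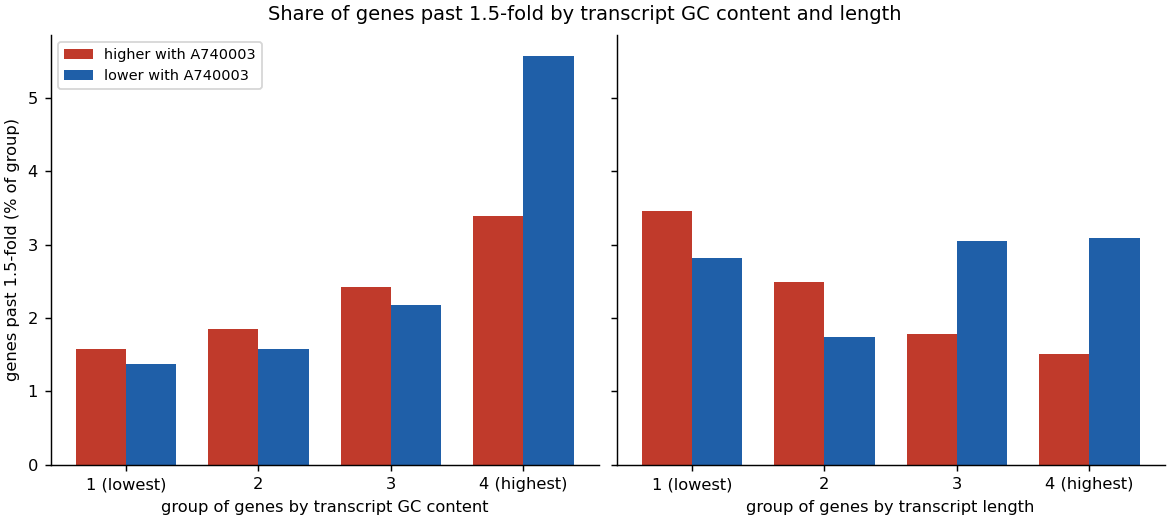
Share of genes at least 1.5-fold higher (red) or lower (blue) with A740003, in percent of each group of 2977 genes by transcript GC content (left) and transcript length (right). The group with the highest GC content holds the tallest bars, 3.39% higher and 5.58% lower, and the longest transcripts have more lower than higher genes.

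The deposited FPKM values and counts were not always in the same proportion in both libraries. Counts divided by FPKM give, up to a factor for each library, the transcript length that was assumed for the gene. Of the 103 genes at least 1.5-fold lower at 5 CPM or more, this quotient differed at least 1.5-fold between the antagonist libraries for 17 (16.5%). It did so for 2 of the 66 higher genes (3.03%) and for 140 of the 9420 genes past neither size (1.49%). In FPKM 96 of the 103 lower genes were still below 1 and 74 at or past 1.5-fold, and 65 of the 66 higher genes were still above 1, 55 at or past 1.5-fold. PIEZO1, a mechanically gated channel gene, had 30 counts with A740003 and 74 with A438079 but 1.55 and 1.01 FPKM. FOXQ1, SKI, FLNA, MMP15, PELP1 and ARID1A kept ratios of 0.429, 0.435, 0.509, 0.479, 0.505 and 0.527 in FPKM.

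Large chromatin regulators were mixed. Of 24 compared, 6 were at least 1.5-fold lower with A740003 in counts, and none was higher. Of all genes compared 2.74% were lower at that size, and 5.58% of the group with the highest GC content. In counts 15 were below 1, and the median log2 ratio was -0.17. With the trend of GC content and length subtracted the median was -0.07, and in FPKM 12 of the 24 were above 1. ARID1A, a subunit gene of SWI/SNF remodelling complexes, had 61 counts with A740003, 118 with A438079 and 302 with PBS, a ratio of 0.505 (0.364 to 0.693). HCFC1, a chromatin adaptor gene, had 34, 59 and 204 counts, a ratio of 0.563 (0.358 to 0.873) in counts and 0.940 in FPKM. CHD3 and EP400, both remodeller genes, stood at 0.599 (0.449 to 0.796) and 0.666 (0.505 to 0.874), and CHD3 at 0.929 in FPKM. Other large regulators went the opposite way, among them MED12 at 1.27 and CHD8 and MED13 at 1.13.

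Among genes of drug and bilirubin handling the UGT1A genes were higher with A740003. Of 13 PXR and CAR targets compared, 10 were above 1, 6 with an interval above 1 and 1 with an interval below 1, and the median was 0.13. At least 1.5-fold higher were 3 of the 13, against 2.52% of all genes, namely UGT1A1, UGT1A3 and GADD45B. UGT1A1 (ENSG00000241635; GRCh38 chromosome 2, 233760248 to 233773299, plus strand) encodes the enzyme that conjugates bilirubin. It had 1459 counts with A740003, 794 with A438079 and 648 with PBS, a ratio of 1.79 (1.64 to 1.96). UGT1A1 and UGT1A3 had fractional counts, and UGT1A genes share their last exons, so they are not separate observations. The counts of the 9 rows were therefore summed, to 2729, 1644 and 1365. The A740003 library stood far above both others in that sum, and the ratio was 1.62 (1.52 to 1.72). CYP1A1, a classic target of the aryl hydrocarbon receptor, had 133, 52 and 41 counts and a ratio of 2.5. It was the member of 7 such targets at least 1.5-fold higher, and 6 of the 7 were above 1.

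Antioxidant genes leaned the same way by small amounts. Of 25 NRF2 targets, 20 were above 1, 10 with an interval above 1 and 1 below, and the median was 0.07. At least 1.5-fold higher was 1 of the 25, near the share of 2.52% over all genes. FTL, the ferritin light chain gene, had 115777 counts with A740003, 81857 with A438079 and 70306 with PBS. Its ratio was 1.38 (1.37 to 1.39), with fractional counts, while FTH1, the heavy chain gene, stood at 0.980. SQSTM1, an autophagy receptor gene, stood at 1.25 (1.21 to 1.30). Of 14 metallothionein and zinc transporter genes, 7 were above 1 and 7 below, with 5 intervals above 1 and 2 below. The 5 above were all the metallothionein genes compared, and the 2 below were the zinc transporter genes SLC30A1 at 0.862 and SLC39A14 at 0.954. MT1F was the largest with 215, 133 and 160 counts and a ratio of 1.58 (1.27 to 1.97), and MT1X, MT1E, MT2A and MT1G stood at 1.29, 1.28, 1.24 and 1.21. Iron handling genes, FTL among them, did not lean that way. Of 16 compared, 5 were above 1 and 11 below, with 3 intervals above 1 and 5 below, and a median of -0.03. At least 1.5-fold higher was 1 of the 16 and lower 1, against 2.52% and 2.74% of all genes. The higher one was HAMP, which encodes hepcidin, the hormone that limits iron uptake. HAMP had 169 counts with A740003 and 101 with each of A438079 and PBS, a ratio of 1.63 (1.27 to 2.11).

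Lysosome and V-ATPase genes had 21 of 29 above 1, 13 with an interval above 1 and none below, and a median of 0.14, with none past 1.5-fold. GLA, a lysosomal galactosidase gene, stood at 1.23 (1.12 to 1.35). NF-kB and chemokine genes had 10 of 16 above 1 and a median of 0.17. The 1 gene at least 1.5-fold higher, where 2.52% of all genes were, was CXCL5, with 37, 16 and 37 counts. CCL20, a chemokine gene, had 5885, 4677 and 6197 counts and a ratio of 1.23 (1.18 to 1.28), and NFKB1 stood at 0.823 (0.745 to 0.908). Stress genes split within their list. Of 24 integrated stress response genes, 15 were above 1 with a median of 0.08, and none reached 1.5-fold. NUPR1, DDIT3 and GDF15, which are induced in stressed cells, stood at 1.48 (1.14 to 1.93), 1.39 (1.15 to 1.68) and 1.35 (1.23 to 1.49), while the amino acid transporter gene SLC7A5 stood at 0.792 (0.718 to 0.873).

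Acute phase, coagulation and fetal liver genes were mostly below 1. Of 15 apolipoprotein and lipoprotein assembly genes, 6 were above 1 and 9 below, with 4 intervals above 1 and 4 below, and a median of -0.04. Of 14 acute phase plasma protein genes compared, 3 were above 1 and 11 below, 7 with an interval below 1, and the median was -0.12. ALB, the albumin gene, had 95722 counts with A740003, 120012 with A438079 and 125391 with PBS, a ratio of 0.779 (0.772 to 0.786). SERPINA3, AHSG and AMBP were the 3 above 1, at 1.10, 1.06 and 1.07. Of 19 fibrinogen and coagulation genes, 3 were above 1 and 16 below. FGB, the fibrinogen beta chain gene, had 2556, 3744 and 3372 counts and a ratio of 0.667 (0.634 to 0.701), below FGA at 0.897 and FGG at 0.894. None of either list reached 1.5-fold with FGB just inside that size.

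Of 20 oncofetal and progenitor genes, 4 were above 1 and 16 below, 10 with an interval below 1, and the median was -0.14. AFP, the fetal counterpart of albumin, had 17122, 21567 and 23421 counts and a ratio of 0.775 (0.760 to 0.791). IGF2 (ENSG00000167244; GRCh38 chromosome 11, 2129112 to 2149603, minus strand), a fetal growth factor gene with fractional counts, had 987 counts with A740003, 1990 with A438079 and 5651 with PBS. The libraries were stepwise, with PBS highest, and the ratio was 0.484 (0.448 to 0.523). PEG10 and ALDH1A1 stood at 0.772 (0.753 to 0.792) and 0.843 (0.827 to 0.860). Among 19 Wnt and beta-catenin targets, 7 were above 1 and 12 below. DKK1, a secreted Wnt inhibitor gene, had 42788, 57837 and 60075 counts and a ratio of 0.722 (0.713 to 0.732). TCF7 and SP5, transcription factor genes of that pathway, stood at 0.591 (0.480 to 0.725) and 0.699 (0.608 to 0.803). AXIN2 stood at 0.953, NOTUM at 1.24 and LGR5 at 1.07, so the targets did not go one way.

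Of 23 hepatocyte transcription factor genes, 7 were above 1 and 16 below, with a median of -0.09. NR0B2 and CREB3L3, which encodes a membrane-bound factor of lipid metabolism, were the 2 at least 1.5-fold higher, and RXRA the 1 lower. Over all genes compared 2.52% were higher and 2.74% lower at that size. HNF4A, the central factor of hepatocyte identity, had 3939, 3889 and 3830 counts and a ratio of 0.989, and its interval held 1. GLUD1, the glutamate dehydrogenase gene, had 18566, 24210 and 24482 counts and a ratio of 0.749 (0.735 to 0.763). GSTA2, a glutathione transferase gene, had 313, 623 and 406 counts. Summed with its close copy GSTA1 the counts were 608, 1040 and 739, a ratio of 0.571 (0.516 to 0.632), so that here the A438079 library was the highest of the 3.

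All 13 mRNAs of the mitochondrial genome were lower with A740003, each with an interval below 1, and none reached 1.5-fold. Their median log2 ratio was -0.21, and -0.19 with the GC content and length trend subtracted. MT-ATP8, a subunit gene of ATP synthase, had 12654 counts with A740003, 17415 with A438079 and 14946 with PBS, a ratio of 0.710 (0.693 to 0.726). MT-ND3 stood at 0.776 (0.764 to 0.789) and MT-CO3 at 0.821 (0.815 to 0.827). The smallest differences were MT-ND5 and MT-ND6, both at 0.930. These mRNAs took 5.78% of counts with A740003, 6.67% with A438079 and 7.04% with PBS, and they come from 1 genome transcribed as long precursors, so they are not 13 separate observations. Nuclear partners did not share that direction. Of 38 complex I subunit genes, 27 were above 1 with a median of 0.06, and of 34 genes of complexes III to V, 21 were above 1 with a median of 0.04. COX8A, a cytochrome oxidase subunit gene, had 701, 499 and 348 counts and a ratio of 1.37 (1.22 to 1.54).

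Several large lists lay at the level of all genes. Of 74 cytosolic ribosomal protein genes, 40 were above 1, and the median was 0.01. The 31 proteasome genes had 16 above 1, the 27 S phase genes 12 and the 27 mitosis genes 14, with medians of 0.00, -0.01 and 0.00. None of these 4 lists had a gene at least 1.5-fold higher or lower. Heat shock genes had 8 of 20 above 1 and glycolysis genes 13 of 22. PKLR, the liver pyruvate kinase gene, was the 1 glycolysis gene at least 1.5-fold lower, at 0.602 (0.484 to 0.747), while PKM stood at 0.960. CA9 and TP53INP1, known targets of hypoxia and of p53, were the only members of their lists past 1.5-fold, at 1.63 (1.26 to 2.12) and 1.66 (1.39 to 1.98). Those lists had 17 and 20 members compared. Over all genes 2.52% were higher and 2.74% lower at that size.

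**Figure D5:**
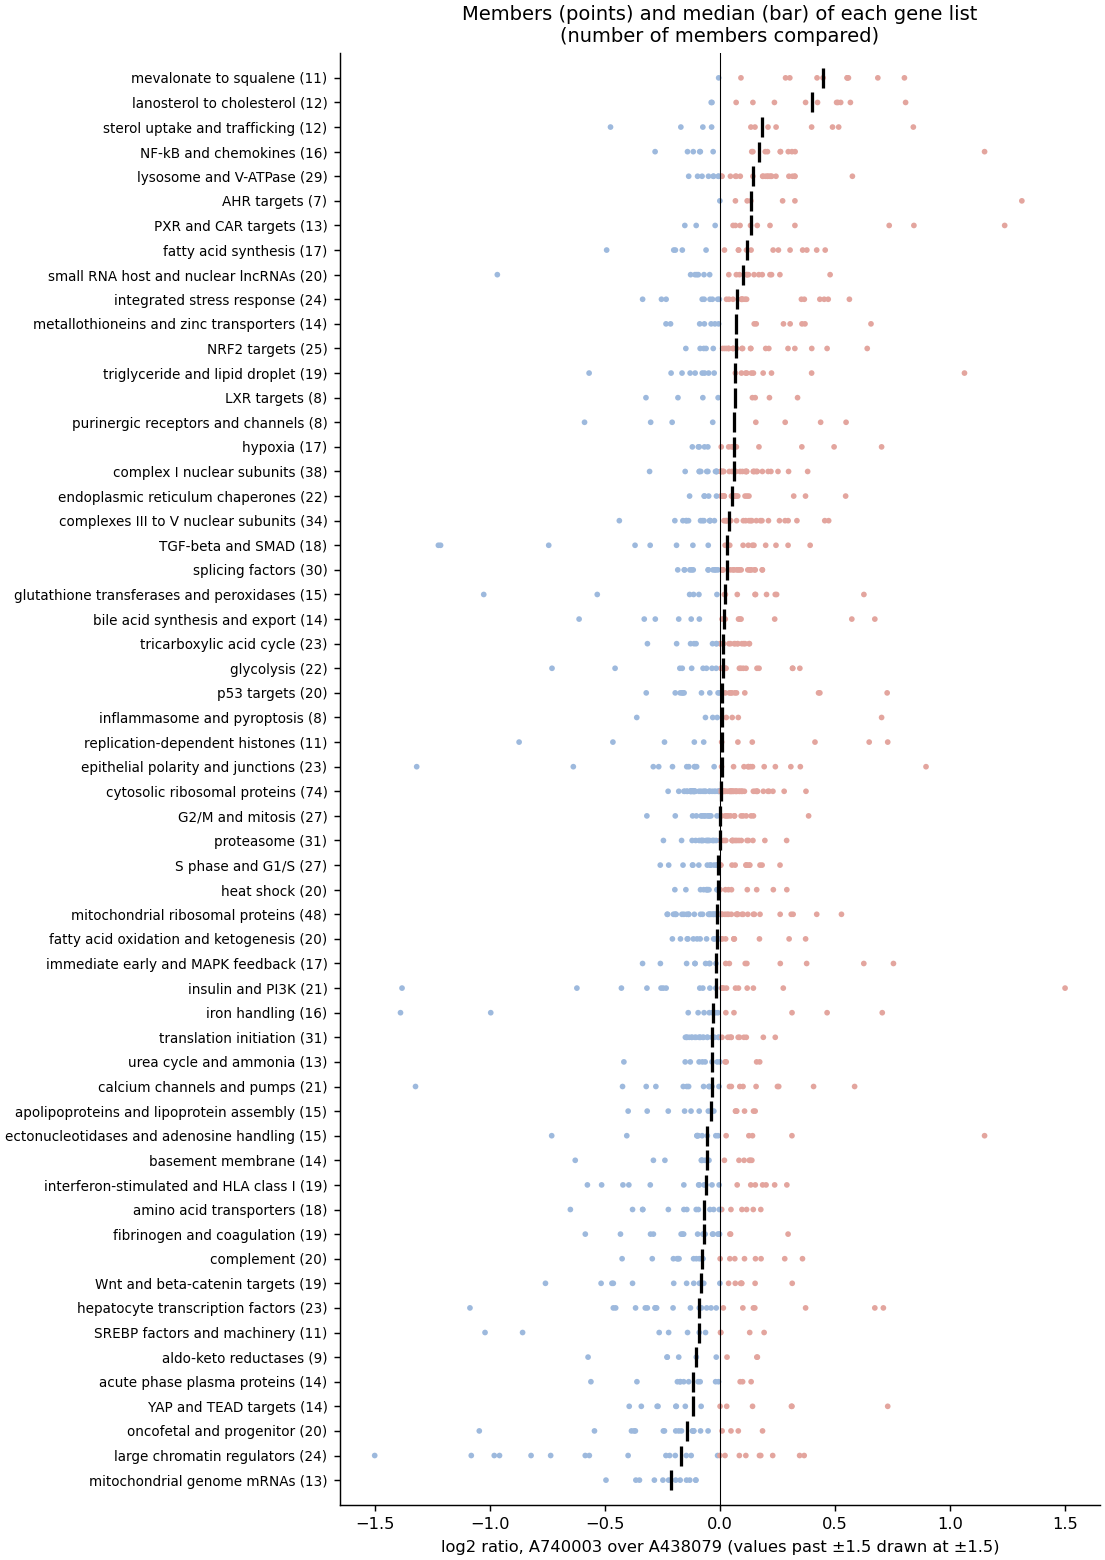
Log2 ratio of A740003 over A438079 for each member (points) of 58 gene lists and the list's median (black bar), sorted by median, with the number of members compared in brackets. The lists of cholesterol synthesis stand at the top with medians of 0.45 and 0.40, and the mitochondrial mRNAs at the bottom with -0.21 and every point left of 0.

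Several large ratios at 5 CPM or more belonged to genes whose reads can be split with near-identical or overlapping rows, and most of those named here stood near 1 once the rows were summed. BLOC1S5-TXNDC5, a readthrough, had 237 counts with A740003 and 0 with A438079, but with TXNDC5 the sum stood at 0.969 (0.948 to 0.990). SULT1A4 had 30 and 920 counts, and with its copy SULT1A3 the sum stood at 1.11 (1.06 to 1.16). RGPD6 had 224 and 464 counts, and summed with RGPD5 and RGPD8 it stood at 1.08 (1.01 to 1.16). BZW1P2, a pseudogene, had 75 and 392 counts, and summed with BZW1 it stood at 1.01 (0.991 to 1.03). FAM156B and SMIM11 had ratios of 2.34 and 0.466, and their sums with their copies stood at 1.17 (1.01 to 1.36) and 0.903 (0.775 to 1.05). CMC4 was different, since its sum with the overlapping MTCP1 had 252, 123 and 147 counts and a ratio of 2.0 (1.61 to 2.5). COQ8A, a coenzyme Q synthesis gene with fractional counts, had 706, 396 and 904 counts and a ratio of 1.74 (1.54 to 1.97).

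The libraries were close in depth, with 19735585 counts for A740003, 19606761 for A438079 and 19375501 for PBS. All 10 hepatocyte markers were compared and summed to 17023, 19183 and 19426 CPM. Markers of other liver cell types were at 0 counts in all 3 libraries for 4 of 7 cholangiocyte, 5 of 8 stellate and fibroblast, 5 of 7 endothelial and 5 of 9 immune genes, and PECAM1 was not analysed here. Their sums were 932, 829 and 1011 CPM for cholangiocyte genes, nearly all SPP1, and 988, 986 and 1071 CPM for immune genes, nearly all LYZ. Stellate and fibroblast genes summed to 20.3, 23.2 and 21.4 CPM and endothelial genes to 0.654, 1.55 and 1.85 CPM. All mitochondrial rows took 8.38%, 9.39% and 10.3% of counts. Among other rows, 3 in the region of the ribosomal RNA repeats on chromosome 21, singled out after their values were seen, held identical values and together took 0.0496%, 0.130% and 0.0336% of counts. The part of these shares in the ratios above was not tested.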

How the data were processed

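RNA from HepG2 cells was extracted with an RNeasy kit and made into libraries with a SMARTer mRNA kit, per the labels' protocols, 1 library per treatment. The deposited files give, for every gene, the authors' expected counts, estimates that need not be whole, and FPKM values, scaled for length and library size. Of the expected counts above 0, 35.1% (A740003), 34.8% (A438079) and 33.3% (PBS) were not whole. The submitters' processing notes name GRCm38, a mouse build, although the rows are human genes. No source used here gives the aligner, the counting tool, the annotation or whether strand was used, which leaves overlapping and antisense genes uncertain. The design had been written for counts, and the same steps were applied to expected counts rounded to whole numbers. The value columns were matched to samples by the letter in each sample's label. The 116 rows without an Ensembl identifier held 0.0791%, 0.0775% and 0.0853% of counts and stayed in the totals.

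TMM scaling (edgeR 4.0.16 in R 4.3.3) gave factors of 1.01 for A740003, 0.990 for A438079 and 1.00 for PBS. Ratios had exact conditional binomial (Clopper-Pearson) 95% intervals, log2 ratios a pseudocount of 0.5 counts. A gene was called past a size of 1.5 or 2 when its interval left out 1. A CPM of 1 was 19.4 to 19.7 counts. Counts were called whole within 0.005 in both antagonist libraries, which held for 6681 genes (54.4%). GC content and length came from GENCODE release 29, and the trend was the median of the 201 genes nearest in GC content and length. Gene coordinates are from GENCODE release 29, and promoter windows from RefSeq. The ratio step was run on simulated libraries drawn with counting error only. That checks the calculation and cannot show how libraries differ beyond counting.

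Named genes were the 12 highest and 12 lowest with whole counts, and 6 and 6 with fractional counts, ranked by the interval bound nearest to 1, with a symbol, at least 5 CPM and a ratio past 1.5. Added were P2RX7, P2RX4, up to 4 members of each list at 5 CPM or more with log2 ratios farthest from 0, and the sterol lists. Other list members were named after their values were seen. Members and lists were chosen with earlier results of these data known. Results for 6 genes taken singly are not reported here. Alternatives were total, DESeq2 1.42.0, upper quartile and 2-library TMM scaling, other filters, sizes and interval rules, counts not rounded, whole counts, FPKM with pseudocounts of 0.1 and 1, protein-coding genes, summed copies and the trend removed. Leaving the ribosomal repeat rows and the rows without an identifier out of the totals was added after the data were seen.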

Additional observations from a re-analysis of the deposited data

How the results depend on the processing

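The counts of genes moved by more than 1.5 times with the filter, the unit and the size rule, and not with total counts, DESeq2, upper quartile or 2-library TMM scaling, counts not rounded, or the trend subtracted. For 2-fold higher genes the count of 124 became 500 with no filter, 6 at 5 CPM, 41 with whole counts, 195 and 48 with FPKM (pseudocounts of 0.1 and 1), 76 for protein-coding genes, 57 with an interval that excludes 1.5-fold and 36 at 3-fold. For 2-fold lower genes 139 became 425, 21, 59 and 44 (no filter, 5 CPM, whole counts, FPKM with 1), 71 with that interval and 48 at 3-fold. For 1.5-fold higher genes 309 became 685, 66 and 127, and 661 with FPKM (0.1). For 1.5-fold lower genes 336 became 622, 103 and 181, and 542 and 221 with FPKM (0.1 and 1). The filters and subsets test fewer or more genes; for the others the cause was not tested.

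Of 812 list medians under alternatives, 792 moved by under 0.1, 16 by more and 4 were classed as reversed. That class does not hold every change of sign. With the trend subtracted, the basement membrane median went from -0.056 to 0.096, and some medians near 0, such as that of heat shock genes, also changed sign. The medians of both cholesterol lists and of the mitochondrial mRNAs kept their sign in each. Of 2423 ratios of named genes, 2267 stayed within the gene's counting interval, 134 left it and 22 were classed as changing side. Genes whose interval held 1 could cross 1 without that class, as GGPS1 did, below 1 in counts and above 1 in FPKM. List medians classed as reversed were, with whole counts, sterol uptake and trafficking (-0.074), aldo-keto reductases (0.16, 1 gene) and small RNA host and nuclear lncRNA genes (-0.069). With FPKM and a pseudocount of 1, large chromatin regulators (0.0017) were also in that class. With FPKM and pseudocounts of 0.1 and 1, the ratios classed as changing side were SCRIB (1.07 and 1.04), PRRC2A (1.02 and 1.01), SCAP (1.06 and 1.04), FASN (1.11 and 1.07), ELOVL6 (0.951 and 0.953), C4A (1.07 and 1.06), CENPE (0.969 and 0.971), PIEZO1 (1.49 and 1.27) and INSIG2 (1.05 and 1.05). With summed copies they were SULT1A4 (1.11), BLOC1S5-TXNDC5 (0.969), RGPD6 (1.08) and BZW1P2 (1.01). The cause was not tested. No paired analysis was possible because each treatment was 1 library without a replicate number, and no library could be left out for the same reason. Depth limits genes near the filter, where intervals spanned 2.56-fold in the median.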
